A study of Mus musculus with 144 samples.

Results

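Small nucleolar RNA (snoRNA) host genes were followed through 4 kinds of mouse liver RNA over the day. The 8 genes are Gas5, Snhg1, Snhg3, Snhg5, Snhg6, Snhg8, Snhg12 and Snhg18. They were taken by symbol, and all 8 were found among the 51912 genes of the count table. RefSeq lists each of them as a long noncoding RNA gene with at least 1 snoRNA inside it. The series was made to study how polyadenylation site use changes over the day. It holds 4 kinds of RNA with 36 libraries each: from wild-type liver, total RNA, RNA of isolated nuclei and RNA of polysomes, and from Bmal1-/- liver, total RNA. Samples were taken at 6 zeitgeber times, counted in hours from lights on (ZT2, 6, 10, 14, 18 and 22), with 6 libraries per time and kind. All mice were male, on the C57BL/6J background, under a 12 h light and 12 h dark cycle with free access to food. Their age is not given in the sources used here, nor is the part of the Bmal1 gene that was removed or whether it was removed in every tissue. Nuclei were pelleted through a sucrose cushion, and polysomes were taken from sucrose gradient fractions of frozen liver lysed with cycloheximide.

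A snoRNA host gene makes a spliced RNA whose introns carry snoRNAs. The introns are cut out, the snoRNA is trimmed from them and stays in the nucleus, where box C/D snoRNAs guide 2′-O-methylation of ribosomal RNA and box H/ACA snoRNAs guide pseudouridylation. The spliced host RNA is exported, and for several hosts it is engaged by ribosomes at short reading frames and removed by nonsense-mediated decay, the pathway that degrades RNAs with early stop codons. Many hosts start transcription at a run of pyrimidines, the 5′ TOP motif, which they share with ribosomal protein genes. The assay reads the RNA end next to a poly(A) stretch, so 1 transcript gives about 1 read whatever its length, and levels as CPM (a gene's counts scaled to a fixed library total) can be compared between genes. Host exons and the excised snoRNA lie in 1 gene, so a count over the gene can hold both.

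The 8 genes hold 27 annotated snoRNAs: 8 in Gas5, 8 in Snhg1, 4 in Snhg12, 2 in Snhg3, 2 in Snhg5 and 1 in each of Snhg6, Snhg8 and Snhg18. In GRCm38.p6 coordinates they lie at chr1:161034601-161038539 on the plus strand (Gas5), chr19:8723487-8726326 plus (Snhg1), chr4:132351933-132353686 minus (Snhg3), chr9:88521052-88522897 minus (Snhg5), chr1:9942025-9944118 minus (Snhg6), chr3:123507552-123508336 minus (Snhg8), chr4:132308678-132311024 plus (Snhg12) and chr15:32240568-32244662 minus (Snhg18). The strand of Snhg6 was taken from its polyadenylation sites. Gas5 overlaps the protein-coding gene Zbtb37 on the other strand, by 264 bases. Snhg6 overlaps Mcmdc2 by 1582 bases. Whether the authors counted by strand is not given in the sources used here, so reads in these overlaps are uncertain.

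The sequences at the annotated starts are shown because the start run of pyrimidines is the feature these genes are known for. RefSeq (GRCm38.p6) gave 8 start windows for 7 of the genes, 2 of them for Gas5. Each line has 30 bases before and 30 bases from the start on, 5′ to 3′ on the gene's strand. Capitals mark the longest run of C or T between 10 bases before and 30 bases after the start.
Gas5, first start (chr1:161034571-161034630): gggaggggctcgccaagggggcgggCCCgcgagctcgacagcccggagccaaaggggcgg
Gas5, second start (chr1:161035136-161035195): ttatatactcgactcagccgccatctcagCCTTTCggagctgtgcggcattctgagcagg
Snhg1 (chr19:8723457-8723516): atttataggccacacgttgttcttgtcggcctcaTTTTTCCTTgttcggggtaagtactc
Snhg3 (chr4:132353657-132353716): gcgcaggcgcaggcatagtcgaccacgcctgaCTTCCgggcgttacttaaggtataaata
Snhg5 (chr9:88522868-88522927): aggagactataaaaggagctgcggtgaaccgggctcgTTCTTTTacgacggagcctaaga
Snhg8 (chr3:123508307-123508366): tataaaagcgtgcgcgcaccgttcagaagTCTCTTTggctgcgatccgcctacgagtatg
Snhg12 (chr4:132308648-132308707): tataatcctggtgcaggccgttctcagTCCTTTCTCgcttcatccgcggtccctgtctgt
Snhg18 (chr15:32244633-32244692): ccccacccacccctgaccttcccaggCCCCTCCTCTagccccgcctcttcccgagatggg

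The runs were 10 bases long at Snhg18, 9 at Snhg1 and Snhg12, 7 at Snhg5 and Snhg8, 6 and 3 at the second and first starts of Gas5, and 5 at Snhg3. A run of at least 7 was found in 5 of the 8 windows and in 22.6% of all 32851 windows of the table. The runs of Gas5 (second start), Snhg8 and Snhg12 begin 1, 1 and 3 bases before the annotated start, while those of Snhg1 and Snhg5 begin 5 and 8 bases into the transcript. The E-box letters CACGTG (a palindrome, so both strands are covered), a site that CLOCK and BMAL1 can bind, were in 0 of the 8 windows of 300 bases and in 7.15% of all windows. This says only that those letters are not in these windows.

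Library depth, as summed gene counts, was 1662449 to 14281894 with a median of 6431391, and was lowest in nuclear RNA. Among the 360 pairs of libraries of the same group 0 were identical. The Arntl row, which is Bmal1, held 5.17 to 18.6 CPM in Bmal1-/- (median 10.9) and 0.251 to 19.3 CPM in wild-type total RNA (median 6.46). Whether these 3′ end reads lie inside the removed part is not known, so this row does not check the genotype label. Fractions were checked on nuclear-retained RNAs: Neat1 had a median of 157 CPM in total, 1411 in nuclear and 8.72 in polysomal RNA, and Malat1 had 1750, 1482 and 47.9 CPM. Both were lowest in polysomal RNA, but only Neat1 had a higher median in nuclear than in total RNA. Summed markers of 6 hepatocyte genes had medians of 47252 to 77278 CPM over the 4 kinds of RNA, none of them at 0. The labels do not say that replicates came from separate animals, so p-values measure the spread between these libraries. Groups of libraries that stood apart are named where they touch a result.

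In wild-type total RNA, Gas5 was the most abundant host, at 140 to 288 CPM with a median of 188. Its lowest library lay above the highest of every other member. Snhg8 followed, at 10.99 to 87.6 CPM with a median of 37.1, and Snhg1 at 12.1 to 29.3 CPM with a median of 18.2. Snhg3 (4.87 to 13.1, median 9.74) and Snhg12 (3.76 to 17.4, median 9.28) had overlapping ranges and near-equal medians. Snhg5 had 3.26 to 7.79 CPM (median 5.30), and Snhg18 had 0.653 to 3.87 (median 2.23). Snhg6 was the lowest by median, at 0.881 CPM, but ran from 0 to 34.8 CPM. Apart from Gas5, neighbours in this order overlapped in range. The sum of the 8 had a median of 273 CPM in total RNA, 184 in nuclear, 73.8 in polysomal and 393 in Bmal1-/- total RNA.

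**Figure D1:**
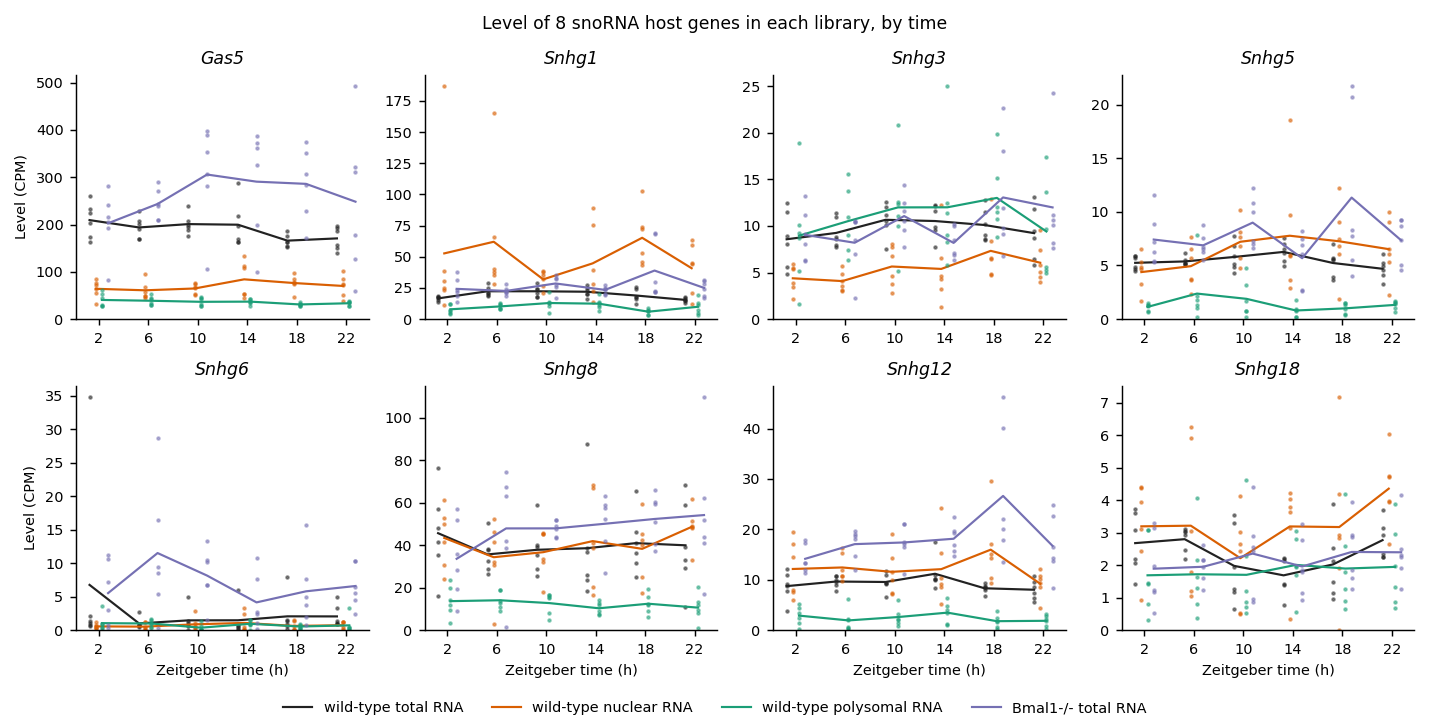
Level in CPM (y axis, linear, from 0, scale set per gene) against zeitgeber time in hours (x axis) for the 8 genes in the 4 kinds of RNA; points are libraries, shifted sideways by kind of RNA, and lines join the means of 6 libraries. Polysomal levels of Gas5 (27.1 to 60.6 CPM) lie under all wild-type total levels (140 to 288 CPM), and 2 Bmal1-/- libraries at ZT18 stand high for Snhg1 and Snhg12.

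Snhg6 split by replicate number. In wild-type total RNA the 6 libraries numbered 4 had 2.75 to 34.8 CPM, with a mean of 9.97, and the other 30 had 0 to 4.90 CPM, with a mean of 0.968. In Bmal1-/- the 6 libraries numbered 1 had 0.228 to 2.43 CPM, with a mean of 1.15, and the other 30 had 0.757 to 28.7 CPM, with a mean of 8.12. In nuclear RNA the libraries numbered 4 had 0.814 to 3.33 CPM and the others 0 to 2.42. The counts behind the split lie at the sites near the end of the gene: in wild-type total RNA those outside the nested snoRNA held 1.80 to 22.3 CPM in the libraries numbered 4 and 0 to 3.12 CPM in the other 30. Changes of Snhg6 are therefore given with and without those libraries.

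**Figure D2:**
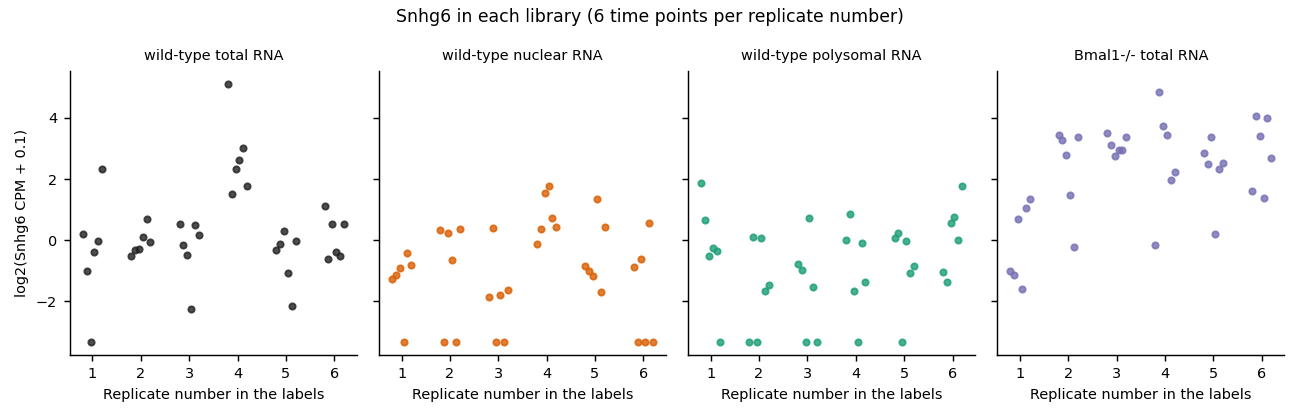
Snhg6 level as log2(CPM + 0.1) (y axis) by replicate number in the labels (x axis), 1 panel per kind of RNA and 1 point per library. In wild-type total RNA the libraries numbered 4 lie at 2.75 CPM and above and 29 of the other 30 lie below that; in Bmal1-/- the libraries numbered 1 lie at 2.43 CPM and below.

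In Bmal1-/- liver, total RNA of 5 of the 8 host genes was higher than in wild type and that of none was lower. The changes were quasi-likelihood log2 changes averaged over the 6 times, with p-values adjusted over all 12082 genes tested. They were 0.87 for Snhg12 (SE 0.09, adjusted p 3.92e-13), 1.66 for Snhg6 (SE 0.36, adjusted p 0.000123), 0.42 for Snhg5 (SE 0.11, adjusted p 0.000949), 0.36 for Snhg1 (SE 0.09, adjusted p 0.000682) and 0.35 for Gas5 (SE 0.11, adjusted p 0.00523). Of all genes tested, 44.2% were called, 21.7% higher and 22.4% lower. The median change of the 8 was 0.36, against -0.00 over all genes. Snhg8 (0.15, SE 0.17, adjusted p 0.501), Snhg3 (-0.04, SE 0.10, adjusted p 0.799) and Snhg18 (-0.19, SE 0.14, adjusted p 0.287) were not called. In bulk RNA, more RNA per cell and more cells of a type that makes it cannot be told apart.

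Snhg12, host of 3 box H/ACA snoRNAs and of Snord99, gave the smallest p. It had 3.76 to 17.4 CPM in wild-type total RNA (median 9.28) and 8.37 to 46.2 CPM in Bmal1-/- (median 17.3). The ranges overlapped, and 17 of 36 Bmal1-/- libraries lay above every wild-type one. Its fitted change was 1.82-fold, and it was higher at 6 of 6 times, from 0.61 at ZT2 to 1.496 at ZT18 on the log2 scale. Replicates 1 to 3 alone gave 0.80 and replicates 4 to 6 alone gave 0.92.

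Snhg1, host of 8 box C/D snoRNAs, had 12.1 to 29.3 CPM in wild type (median 18.2) and 13.4 to 68.9 CPM in Bmal1-/- (median 24.03). Of the Bmal1-/- libraries 10 lay above every wild-type one and none below. It was called in replicates 1 to 3 alone (log2 change 0.30) and in replicates 4 to 6 alone (0.37). At ZT18 the Bmal1-/- libraries 5 and 6 had 68.9 and 68.2 CPM of Snhg1, and the other 4 had 21.8 to 30.02. The same 2 libraries had 46.2 and 40.2 CPM of Snhg12 against 13.6 to 21.97, and 20.7 and 21.7 CPM of Snhg5 against 4.06 to 8.28. They also differed in a gene outside the class, picked here after its values were seen. Mup7, a major urinary protein gene, had 5.24 and 23.6 CPM in them and at least 39.8 in the other 34 Bmal1-/- libraries. Without these 2 libraries the changes were 0.25 for Snhg1 (adjusted p 0.00460), 0.78 for Snhg12 (adjusted p 2.23e-13) and 0.28 for Snhg5 (adjusted p 0.00751).

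Gas5, host of 8 box C/D snoRNAs, had 140 to 288 CPM in wild type (median 188) and 59.4 to 494 CPM in Bmal1-/- (median 276). It thus spread both ways: 15 Bmal1-/- libraries lay above every wild-type library and 5 below. The 5 low ones were number 5 at ZT2, number 4 at ZT10, number 4 at ZT14 and numbers 4 and 5 at ZT22. In Bmal1-/- the SD was 60.1 CPM within replicates 1 to 3 (mean 281) and 128 CPM within replicates 4 to 6 (mean 245). The call of Gas5 held within replicates 1 to 3 (0.42, adjusted p 5.66e-05) and was lost within replicates 4 to 6 (0.28, adjusted p 0.326) and without the libraries numbered 6 (0.25, adjusted p 0.0845).

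Snhg5, which hosts 2 snoRNAs, had 3.26 to 7.79 CPM in wild type (median 5.30) and 2.65 to 21.7 CPM in Bmal1-/- (median 7.24), with 13 libraries above and 2 below the wild-type range. Its call was lost within replicates 4 to 6 (0.32, adjusted p 0.0801). Snhg6, host of Snord87, rose by 1.66 on the log2 scale with all libraries, by 2.66 without the libraries numbered 4 (adjusted p 3.56e-10) and by 1.79 without those numbered 1 (adjusted p 7.02e-05). Within replicates 4 to 6 its change was 1.23 and not called (adjusted p 0.0593). Without the single wild-type library that stood highest, number 4 at ZT2, it was 2.10 (adjusted p 2.11e-07). The lowest Bmal1-/- value of Snhg8, host of Snora24, was 1.58 CPM and the highest 110 CPM, a wider range than the wild-type 10.99 to 87.6 CPM.

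The summed markers of some cell types differed with genotype, and those of others were nearly the same. The summed level of 4 cholangiocyte markers ran from 9.90 to 53.0 CPM in wild-type total RNA (median 19.0) and from 33.3 to 117 CPM in Bmal1-/- (median 58.2). That of 4 stellate cell markers ran from 205 to 380 CPM (median 294) and from 277 to 481 CPM (median 358). That of 6 hepatocyte markers ran from 36028 to 97054 CPM (median 77278) and from 31338 to 123237 CPM (median 59518). Medians in wild type and Bmal1-/- were 186 and 189 CPM for sinusoidal endothelium and 183 and 169 CPM for Kupffer cell markers. They were 1.32 and 1.41 CPM for lymphocyte markers and 1302 and 830 CPM for blood markers. All genes of these lists were detected, and their part in the changes of the host genes was not tested.

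**Figure D3:**
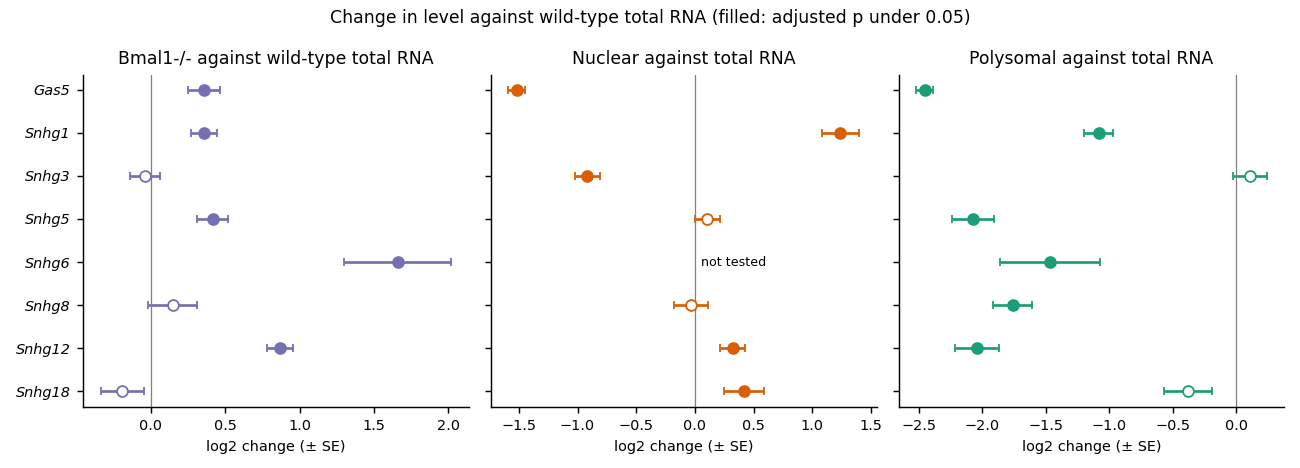
The log2 change of each gene (x axis, with bars of 1 SE) against wild-type total RNA, for Bmal1-/- total RNA, nuclear RNA and polysomal RNA of wild type; filled points have an adjusted p under 0.05. Polysomal changes run from -2.46 (Gas5) to 0.11 (Snhg3), nuclear ones from -1.52 (Gas5) to 1.24 (Snhg1), and Snhg6 was under the count minimum of the nuclear fit.

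In nuclear RNA the host genes went different ways. By gene counts, 3 of the 7 genes tested were higher than in total RNA and 2 were lower. Over sites outside the nested snoRNAs 2 of those 3, Snhg1 (-0.60, adjusted p 8.76e-07) and Snhg12 (-0.88, adjusted p 6.62e-10), were lower. For Snhg12 no filtered site lies on a snoRNA, so no snoRNA site was taken out. That fit only replaced its gene count by its 2 sites at the 3′ end, which held 39.0% of the nuclear gene count. Snhg6 fell under the minimum of 10 counts per library. Of all 11864 genes tested, 83.8% were called, 41.6% higher and 42.1% lower, so the share of members called is no larger than that of genes at large. Both comparisons of fractions use the same wild-type total libraries. Snhg1 was higher by 1.24 (SE 0.16, adjusted p 2.18e-10), Snhg18 by 0.42 (SE 0.17, adjusted p 0.0192) and Snhg12 by 0.32 (SE 0.10, adjusted p 0.00417). Gas5 fell by 1.52 on the log2 scale (SE 0.07, adjusted p 7.60e-32) and Snhg3 fell by 0.92 (SE 0.11, adjusted p 2.61e-12). Snhg5 (0.10, SE 0.11, adjusted p 0.365) and Snhg8 (-0.03, SE 0.15, adjusted p 0.835) were not called. The median of the 7 was 0.10, against -0.01 over all genes.

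Gas5 had 31.5 to 134 CPM in nuclear RNA (median 70.4), and all 36 nuclear libraries lay below the lowest of total RNA, 140 CPM. Snhg3, host of Snora73a and Snora73b, had 1.33 to 12.9 CPM (median 4.86) against 4.87 to 13.1 CPM in total RNA, and 18 of 36 nuclear libraries lay below that range. Snhg1 had 11.4 to 187 CPM (median 38.7) against 12.1 to 29.3 CPM, and 25 nuclear libraries lay above the total range and 1 below it. Its 6 nuclear libraries numbered 1 had 32.4 to 187 CPM and the other 30 had 11.4 to 103 CPM. Without the libraries numbered 1 the change of Snhg1 was 0.94 (adjusted p 4.36e-11). Snhg12 had 4.43 to 29.6 CPM (median 10.7), with 4 libraries above the total range, and its call was lost within replicates 4 to 6 (0.02, adjusted p 0.879). Snhg18 had 0 to 7.17 CPM (median 3.12), with 15 libraries above the total range and 4 below, and its call was lost within replicates 1 to 3 (0.31, adjusted p 0.242) and without the libraries numbered 4 (0.33, adjusted p 0.0957).

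The rise of Snhg1 in the nucleus came with counts on its nested snoRNAs. The authors' filtered list has 4 polyadenylation sites in Snhg1. The most upstream, at chr19:8724300-8724312 (mm10, plus strand), lies within the snoRNA gene LOC115489084, and the next, at chr19:8724592-8724607, overlaps the end of LOC115489083 by 10 bases. The other sites, at chr19:8726248-8726348 and chr19:8726397-8726448, lie at and past the annotated end of the host gene. The sites on the snoRNAs held 10.5% of the site counts of Snhg1 in total RNA, 70.7% in nuclear RNA, 10.7% in polysomal RNA and 6.08% in Bmal1-/- total RNA. Their summed level ran from 4.60 to 220 CPM of site counts in nuclear RNA and from 0.156 to 12.2 CPM in total RNA. At the sites outside them the level ran from 2.66 to 31.3 CPM in nuclear RNA and from 10.1 to 33.4 CPM in total RNA. The nuclear libraries numbered 1 had 28.3 to 220 CPM at the snoRNA sites and the other 30 had 4.60 to 96.1 CPM.

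Snhg6 showed how the annotation decides this. Its site at chr1:9942484-9942500 (minus strand) lies inside Snord87, which has a row of its own in the gene table. That site held 72.2% of the site counts of Snhg6 in total RNA, 48.1% in Bmal1-/-, 69.0% in polysomal RNA and 99.3% in nuclear RNA. The Snord87 row had 0 to 6.95 CPM in total RNA (median 2.04), 3.55 to 353 CPM in nuclear RNA (median 39.8) and 0 to 3.73 CPM in polysomal RNA (median 0.351). The Snhg6 row itself had 0 to 3.33 CPM in nuclear RNA (median 0.448) and 0 counts in 8 of 36 libraries. The site counts of Snhg6 summed to 6737% of its row in nuclear RNA, so reads on Snord87 were counted outside Snhg6. LOC115489084 and LOC115489083 have no row, and the site counts of Snhg1 summed to 78.2% of its row. At the Snord87 site, too, the nuclear libraries numbered 1 stood highest, at 107 to 519 CPM, with 3.79 to 99.9 CPM in the other 30.

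**Figure D4:**
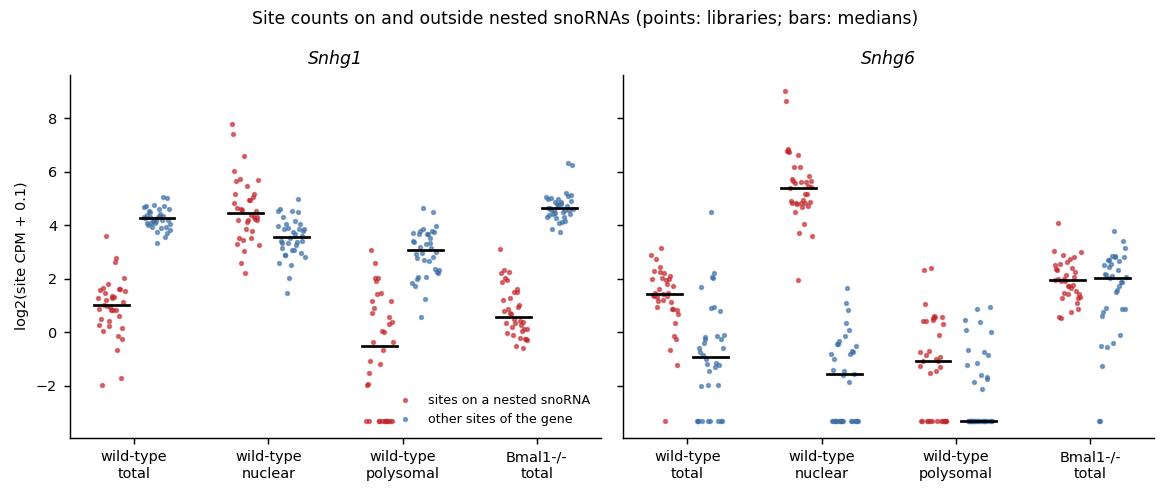
Site counts as log2(CPM + 0.1) (y axis) at sites on a nested snoRNA and at the other filtered sites of Snhg1 and Snhg6, in each library of the 4 kinds of RNA (x axis); black bars are medians. In nuclear RNA the snoRNA sites lie above the other sites of the same gene at the medians of both genes, and in total RNA the order is the opposite for Snhg1.

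Of the 27 nested snoRNAs 11 have a row of their own, and the rows that hold more than a few counts were higher in nuclear RNA. Snora73b, inside Snhg3, had 6.87 to 37.9 CPM in nuclear RNA (median 18.7) and 0 to 3.13 CPM in total RNA (median 0.998), while its host was lower in the nucleus. Snord22, inside Snhg1, had a median of 3.51 CPM in nuclear and 0.386 in total RNA. Inside Snhg12, Snora16a had medians of 2.92 and 0.134 CPM, Snora44 of 3.31 and 0.134 and Snora61 of 1.88 and 0.122 in the same order. Snora24, inside Snhg8, had medians of 1.21 and 0.107 CPM. In polysomal RNA, Snord47, Snora73a, Snora16a, Snora61, Snord99 and Snord123 were at 0 counts in all 36 libraries. The assay needs a poly(A) stretch, so these rows count reads primed on a snoRNA and are not its full amount.

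Snhg12 has 2 filtered sites, both at its 3′ end, and they held 87.6% of the gene count in total RNA but 39.0% in nuclear RNA. Over sites outside the snoRNAs Gas5 changed by -1.65, Snhg3 by -1.16, Snhg5 by -0.14 and Snhg8 by -0.01. Among all 29199 filtered sites 21 overlap a RefSeq snoRNA by at least 1 base on either strand. Of these 20 had a mean of at least 10 counts, and all 20 had a higher mean CPM in nuclear than in total RNA, with a median log2 ratio of 3.96 after adding 0.1 CPM. Of the other 17629 sites with such counts 6553 were higher, and their median was -0.43. These 2 values are descriptions of the site means.

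In polysomal RNA, 6 of the 8 host genes were lower than in total RNA and none was higher. Among the 6, Snhg5 and Snhg6 averaged 7.78 and 4.64 counts in polysomal RNA, under the minimum of 10. They passed it only through total RNA, at 42.1 and 16.5 counts. So did Snhg18, which is not among the 6, at 9.83 counts in polysomal and 18.3 in total RNA. Of all 11556 genes tested 76.1% were called, 38.4% higher and 37.6% lower. The median change of the 8 was -1.62, against 0.01 over all genes. Gas5 fell by 2.46 on the log2 scale (SE 0.07, adjusted p 1.78e-44), which is 5.48-fold. Snhg5 fell by 2.07 (SE 0.17, adjusted p 2.70e-18), Snhg12 fell by 2.04 (SE 0.17, adjusted p 2.88e-17), Snhg8 fell by 1.76 (SE 0.15, adjusted p 6.53e-17) and Snhg1 fell by 1.08 (SE 0.11, adjusted p 1.79e-13). Each of these 5 was lower at 6 of 6 times. Snhg3 did not follow, with a change of 0.11 (SE 0.13, adjusted p 0.452). Snhg18 had -0.38 (SE 0.19, adjusted p 0.0608).

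The polysomal levels of Gas5, 27.1 to 60.6 CPM (median 34.4), lay below total RNA in 36 of 36 libraries. Snhg5 had 0.197 to 7.80 CPM (median 1.24), below the total range in 34 libraries, and Snhg12 had 0.205 to 6.31 CPM (median 2.10), below it in 28. Snhg1 had 3.15 to 22.1 CPM (median 9.33), below it in 25, and Snhg8 had 1.06 to 23.5 CPM (median 12.1), below it in 14. Snhg3 had 1.60 to 25.1 CPM (median 10.5), above the total range of 4.87 to 13.1 in 9 libraries and below it in 1. Over sites outside the snoRNAs the changes were -2.46 for Gas5, -1.98 for Snhg12, -1.92 for Snhg5, -1.76 for Snhg8, -1.12 for Snhg1 and -0.07 for Snhg3. Snhg6 fell by 1.47 (SE 0.39, adjusted p 0.000641) with 0 to 3.54 CPM in polysomal and 0 to 34.8 in total RNA. Its mean count was 4.64 in polysomal and 16.5 in total RNA, so it passed the minimum of 10 only through total RNA. There the library numbered 4 at ZT2 alone held 185 counts. Without that library, without all libraries numbered 4, and within replicates 1 to 3, Snhg6 fell under the count minimum and was not tested. Snhg18 was called under 7 alternatives, among them median-ratio size factors (-0.47, adjusted p 0.0209), and within replicates 4 to 6 its change was -0.12 (adjusted p 0.679).

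Blood markers moved with this fraction: the summed level of 3 haemoglobin genes ran from 1037 to 11087 CPM in polysomal RNA (median 4390) and from 298 to 6229 CPM in total RNA (median 1302). Since CPM is a share, a gene's polysomal CPM is its share of the RNA in the fraction and not the part of its molecules on ribosomes. The part of blood RNA in the changes was not tested.

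The daily rhythm of each gene was tested with a 24 h curve within each kind of RNA. Of the 8 genes in wild-type total RNA 1 was called, Snhg1, while 18.9% of all 11964 genes tested were. Its fitted peak was at ZT10.9, and the fitted level there was 1.42 times that at the trough (adjusted p 0.0163). The means of 6 libraries were 16.6 CPM ± 1.92 (SD) at ZT2, 22.4 ± 4.02 at ZT6, 22.3 ± 4.36 at ZT10, 21.99 ± 4.07 at ZT14, 19.0 ± 5.17 at ZT18 and 15.4 ± 1.86 at ZT22. The ranges overlapped between the high and low times: 13.6 to 18.8 CPM at ZT2 and 17.8 to 29.3 CPM at ZT10. The call was lost within replicates 1 to 3 (1.28, adjusted p 0.356), within replicates 4 to 6 (1.59, adjusted p 0.0998) and without the libraries numbered 5 (1.33, adjusted p 0.130). Snhg18 had a ratio of 1.72 with a peak at ZT1.52 (adjusted p 0.0639), and it was called by DESeq2 (adjusted p 0.0409) and without the libraries numbered 1 (1.85, adjusted p 0.0423). The other 6 had adjusted p of 0.186 or above and, except for Snhg6, ratios of 1.14 to 1.23.

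No member was called rhythmic elsewhere. That was 0 of 7 tested in nuclear RNA, where 5.99% of genes were called, 0 of 5 in polysomal RNA (7.90%) and 0 of 8 in Bmal1-/- (0.00825%). At an unadjusted p under 0.05 there were 1 (Snhg5), 0 and 1 (Snhg12). DESeq2 called 0 members in each of the 3. In polysomal RNA, where Snhg5, Snhg6 and Snhg18 were under the count minimum, Snhg1 had its fitted peak at ZT11.1 with a ratio of 1.56 (adjusted p 0.354), and without the libraries numbered 2 it was called (2.18, adjusted p 0.0384). In Bmal1-/- its fitted ratio was 1.36 with a peak at ZT17.3 (adjusted p 0.9999). A difference in rhythm from wild-type total RNA was called for 0 of 8 members in Bmal1-/- (5.11% of genes), 0 of 7 in nuclear RNA (0%) and 0 of 8 in polysomal RNA (0%). DESeq2 called 0 members in each. Unadjusted p under 0.05 were those of Snhg1 in Bmal1-/- (0.0257, adjusted p 0.198) and Gas5 in nuclear RNA (0.0240, adjusted p 0.9999).

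Site usage, a site's share of the site counts of its gene, was tested for sites with at least 5% of them. In Bmal1-/- 0 of 11 member sites differed, against 8.55% of all 11440 sites. In nuclear RNA 10 of 11 differed, against 78.8% of 10083 sites, and in polysomal RNA 8 of 10, against 70.3% of 10646. In Bmal1-/-, 0 of the member sites had an unadjusted p under 0.05, and DESeq2 was not run on sites. The sites tested were those of Gas5, Snhg1 and Snhg8 and, against Bmal1-/-, of Snhg12; Snhg3 has 1 filtered site, and the other genes were under the minimum of 50 site counts or of 2 sites.

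Gas5 had 11 filtered sites along its length. Among them the most 3′ one, at chr1:161038440-161038544, held 47.5% ± 9.87 of its filtered site counts in total RNA (SD, n = 36), 67.8% ± 8.01 in nuclear, 62.2% ± 9.29 in polysomal and 45.7% ± 7.29 in Bmal1-/-. Its usage rose by 0.52 on the log2 scale in nuclear RNA (SE 0.05, adjusted p 4.51e-13) and by 0.39 in polysomal RNA (SE 0.06, adjusted p 4.72e-08), at 6 of 6 times in both. The site at chr1:161037510-161037551 held 11.6% ± 3.58 in total, 3.34% ± 2.08 in nuclear and 8.05% ± 4.64 in polysomal RNA, a log2 change of -1.80 in nuclear RNA (adjusted p 2.41e-14) and of -0.49 in polysomal RNA (adjusted p 0.00688). Another, at chr1:161038227-161038278, held 12.1% ± 2.20, 11.7% ± 5.36 and 6.41% ± 3.88 in the same order; it was not called in nuclear RNA (adjusted p 0.331) and was called in polysomal RNA (-0.89, adjusted p 1.02e-07). The last site thus held a larger share of the Gas5 site counts in nuclear and polysomal RNA than in total RNA. Whether the reads at the sites further upstream mark true RNA ends was not tested.

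In Snhg1 the site at the host's end, chr19:8726248-8726348, held 71.6% ± 12.5 of the counts in total RNA, 11.2% ± 9.17 in nuclear RNA and 50.8% ± 22.3 in polysomal RNA. The site past the annotated end, chr19:8726397-8726448, held 17.5% ± 8.06, 22.9% ± 11.1 and 36.6% ± 18.4. Its usage rose by 1.04 on the log2 scale in polysomal RNA (SE 0.16, adjusted p 7.01e-08). Its nuclear rise of 0.38 (adjusted p 0.0421) was lost within replicates 1 to 3 (0.23, adjusted p 0.469) and without the libraries numbered 2, 5 or 6. The snoRNA site at chr19:8724300-8724312 went from 4.22% ± 2.82 to 46.7% ± 18.3 in nuclear RNA, a log2 change of 3.497 (SE 0.18, adjusted p 2.26e-27). In polysomal RNA it held 11.4% ± 16.4, a log2 change of 1.19 (SE 0.38, adjusted p 0.00417). The upstream site of Snhg8, at chr3:123507816-123507857, held 12.3% ± 4.05 in total RNA and 7.94% ± 4.04 in nuclear RNA (-0.59, adjusted p 0.000121). In polysomal RNA it held 9.38% ± 8.16 (-0.44, adjusted p 0.0491). That last call was lost without the libraries numbered 1, 2, 3, 5 or 6.

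**Figure D5:**
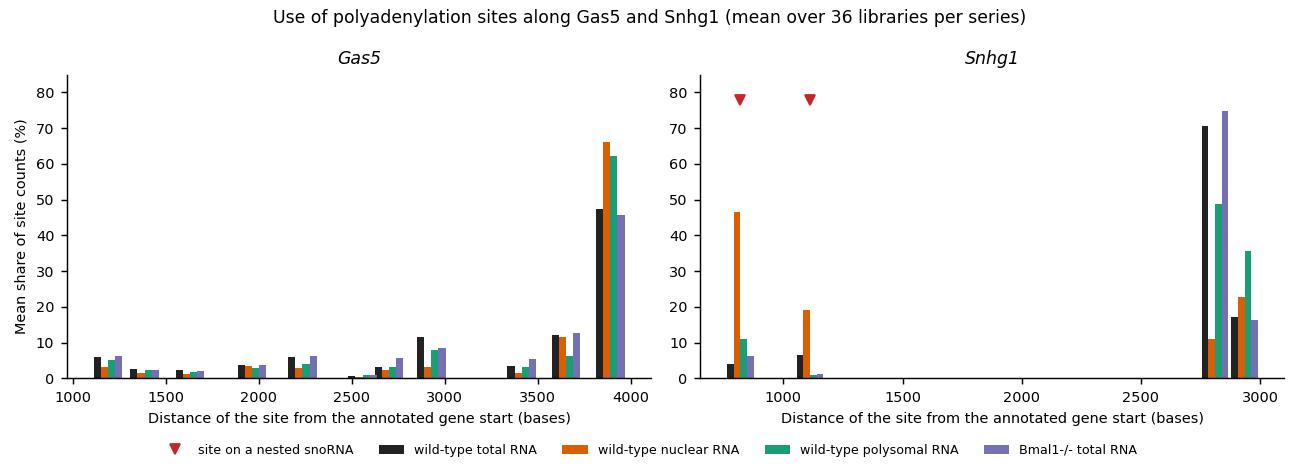
Mean share of a gene's site counts in percent (y axis) at each filtered site of Gas5 and Snhg1, by distance of the site from the annotated gene start in bases (x axis), with 1 bar for each kind of RNA (mean over 36 libraries, no error bars, shares of all sites of the gene, also those outside the filtered list); red triangles mark sites on a nested snoRNA. The last Gas5 site takes 66.2% in nuclear against 47.5% in total RNA by this share, and in Snhg1 the sites on snoRNAs take 46.5% and 19.1% in nuclear RNA.

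Other genes of the snoRNA pathway were taken from lists of 11 other noncoding hosts, 16 protein-coding hosts, and the proteins that build snoRNA particles. In Bmal1-/-, 8 other noncoding hosts were tested: Zfas1 (0.70, SE 0.10, adjusted p 6.41e-09), Snhg15 (0.59, adjusted p 0.00213) and Snhg9 (0.50, adjusted p 0.000219) were higher and Snhg20 was lower (-0.39, SE 0.08, adjusted p 5.16e-05). Of the 16 protein-coding hosts 12 were higher and 1 lower, with a median of 0.27. Among them were the elongation factor genes Eef1b2 (0.36, SE 0.04, adjusted p 3.24e-11) and Eef2 (0.42, SE 0.06, adjusted p 1.96e-08). The particle and decay factor lists had no gene called lower, and the shares called higher are to be read against 21.7% of all genes. Of the 9 box C/D proteins and assembly factors 2 were higher, Ruvbl1 (0.21, adjusted p 0.000815) and Nufip1 (0.24, adjusted p 0.0102), and of the 7 box H/ACA ones 2, Naf1 (0.34, adjusted p 0.00180) and Dkc1 (0.15, adjusted p 0.0397). Of 10 nonsense-mediated decay factors 2 were higher, the endonuclease Smg6 (0.33, adjusted p 1.95e-05) and Upf3a (0.23, adjusted p 0.000205). Dkc1 and Nop56 are on a host list and a protein list.

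In polysomal RNA all 7 other noncoding hosts tested were lower, with a median of -2.23, among them Zfas1 (-1.82, adjusted p 2.12e-22) and Snhg9 (-2.32, adjusted p 4.69e-20). Of the protein-coding hosts 14 were lower and 1 higher, with a median of -1.10. The ribosomal protein gene Rpl13a had -2.06 (adjusted p 3.02e-27) and Eef1b2 -1.38 (adjusted p 1.27e-27). In nuclear RNA 6 of 8 other noncoding hosts were higher and 1 was lower, with a median of 1.34. Snhg20 had 2.47 (adjusted p 3.75e-37) and Snhg17 2.19 (adjusted p 3.71e-22). Of the protein-coding hosts 10 were lower and 5 higher, and Tpt1, which encodes a translationally controlled protein, had -2.20 (adjusted p 3.68e-31). Reads on snoRNAs were not taken out of these lists. Over all genes 41.6% were higher and 42.1% lower in nuclear RNA, and 38.4% and 37.6% in polysomal RNA, so that several of the list counts are near the background. Of the particle proteins, 5 of 8 box C/D ones were lower and 1 higher in nuclear RNA, and 4 of 7 box H/ACA ones were lower and 1 higher. In polysomal RNA these were 4 lower and 3 higher of 9, and 1 lower and 4 higher of 7. Of 10 decay factors 6 were higher and 4 lower in nuclear RNA, and 2 were higher and 6 lower in polysomal RNA.

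The genes whose pattern over the 24 groups of kind of RNA and time was most like the mean of the 8 were Gm8451 (Pearson r 0.969), Rps18 (0.967), Rps10-ps1 (0.965), Atad2b (0.964) and Rps24-ps3 (0.964), out of 7727 genes averaging 50 counts or more. Rps18 encodes a protein of the small ribosomal subunit, and reads of the pseudogenes Rps10-ps1 and Rps24-ps3 may be shared with their parent genes. Between the members themselves, Snhg5 and Snhg8 (0.932), Snhg5 and Snhg12 (0.930) and Snhg8 and Snhg12 (0.905) were closest. Snhg3 went against Snhg1 (-0.54) and Snhg18 (-0.51). These values describe 24 group means, which the 4 kinds of RNA dominate.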

How the data were processed

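The authors deposited raw counts per gene (51912 genes) and per polyadenylation site (86780 sites, 29199 in their filtered list), per the file headers, with 1 column per library. QuantSeq libraries from TRIzol-extracted, DNase-treated RNA were used, per the labels' protocols. The submitters' processing notes name STAR 2.4.2a, edgeR, HOMER and the builds mm10 and GRCm38.p5; how each was used, and whether strand was counted, is not given in the sources used here. CPM divides a count by the library's summed gene counts (for sites, site counts).

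Genes averaging 10 counts or more per library were tested by robust quasi-likelihood in edgeR 4.0.16 (R 4.3.3, TMM normalization), with Benjamini-Hochberg adjustment over all of them and a threshold of 0.05. A level change is the mean of 6 time-point contrasts over 72 libraries. Rhythm is a cosine and sine of 24 h within 36 libraries, and a difference in rhythm is its interaction with kind of RNA. Usage was fitted on site counts with log(gene site total + 0.5) as offset, for genes with 2 or more sites of at least 5% and a mean of at least 50 counts; a site belongs to a gene that holds it on its strand, or ends up to 1000 bases before it. Strands and snoRNAs come from RefSeq GRCm38.p6. The scripts were tested on simulated counts.

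The members and lists were chosen with earlier results of these data known. Named were the 8 genes, their nested snoRNAs, the list genes with the 2 lowest p per list or counted in the text, control genes and the 5 most alike genes. Alternatives were median-ratio size factors, a minimum of 1 count, DESeq2 1.42.0, replicate sets, leaving out each number, replicate blocks and a fit of all 4 series. Counts outside snoRNAs and fits without single libraries were added after the data were seen.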

Additional observations from a re-analysis of the deposited data

Results flagged for a closer look

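In 16 of 192 groups of 6 libraries 1 library lay far from the other 5; chance alone gives about 1 in 20 such groups. Snhg6 in wild-type total RNA gave 5 of them, each in the library numbered 4: 34.8 CPM at ZT2 (others up to 2.06), 2.75 at ZT6 (up to 0.822), 4.98 at ZT10 (up to 1.34), 6.06 at ZT14 (up to 0.982) and 7.93 at ZT18 (up to 1.52). In polysomal RNA Snhg6 was at 3.54 CPM in library 1 at ZT2 and at 3.29 in library 6 at ZT22. Snhg1 in nuclear RNA was at 187 CPM in library 1 at ZT2 (others up to 38.5) and at 165 in library 1 at ZT6 (up to 65.7). The wild-type total library 4 at ZT14 was high for Snhg8, at 87.6 CPM (others up to 38.8), and Snhg12, at 17.4 CPM (up to 11.03), as well as Snhg6. Snhg3 was at 24.2 CPM in Bmal1-/- library 2 at ZT22 (others up to 11.1) and at 25.1 in polysomal library 5 at ZT14 (up to 12.4). Snhg5 was at 7.80 CPM in polysomal library 5 at ZT6 (up to 2.15), and Snhg12 at 6.24 in polysomal library 4 at ZT6 (up to 2.13). Snhg18 was low in nuclear library 6 at ZT14, at 0.331 CPM (others from 3.15). What sets these libraries apart was not tested.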

How the results depend on the processing

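Within replicates 4 to 6, 2 of the 8 genes were called in Bmal1-/- (5 with all libraries). Rhythm in wild-type total RNA was called for 2 members by DESeq2, 0 within replicates 1 to 3, 0 within replicates 4 to 6 and 0 to 2 when 1 replicate number was left out; in polysomal RNA leaving one out gave 0 to 1. Usage against Bmal1-/- gave 1 member site within replicates 4 to 6, 2 with a gene mean of 20, and 0 to 1 leaving one out; polysomal usage gave 5 within replicates 4 to 6 and 5 to 8 leaving one out.

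Changes of sign were these. In Bmal1-/-: Snhg3 0.075 (replicates 1 to 3) and -0.10 to 0.062 leaving one out; Snhg8 -0.10 (replicates 4 to 6) and -0.011 to 0.39 leaving one out. In nuclear RNA: Snhg5 -0.0077 with a minimum of 1 count, -0.014 in replicates 4 to 6 and -0.14 outside snoRNAs; Snhg8 0.23 (replicates 1 to 3), -0.099 to 0.10 leaving one out, and 0.041 without the wild-type total library 4 at ZT2; Snhg1 -0.60 outside snoRNAs, where its snoRNA sites are left out by construction, and Snhg12 -0.88 over its sites, none of which is on a snoRNA. In polysomal RNA: Snhg3 -0.031 to 0.20 leaving one out and -0.067 outside snoRNAs. In usage: the Gas5 site at 161038227 0.090 in nuclear RNA (replicates 1 to 3), the Gas5 site at 161035772 0.065 and the Snhg8 site at 123507553 -0.018 in polysomal RNA (replicates 4 to 6). Single sites against Bmal1-/-, none of them called with all libraries, also changed sign under some alternatives. The cause of these was not tested.

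Correlations of same-numbered libraries with total RNA were over 0.1 in 14, 34 and 0 of 36 pairs for Bmal1-/-, nuclear and polysomal RNA, and the numbers were taken as pairing only where all pairs passed. Nuclear libraries came close: their mean correlation was 0.284, and 30 of 36 wild-type total libraries correlated best with their own number, a hint from the data and not the design. The nuclear calls stayed at 5 members with a replicate block by number alone. Over all alternatives, among them a block per number and time, 4 to 6 members were called in nuclear RNA. With the block by number, 3 members were called rhythmic in wild-type total RNA, Snhg1, Snhg18 (1.75, adjusted p 0.0283) and Snhg6 (3.24, adjusted p 0.0312). There 74 of 90 same-numbered pairs across times were over 0.1. With a block per number and time Gas5 in Bmal1-/- was 0.26 (adjusted p 0.0510). Over all genes and alternatives, 3792 to 6441 genes differed in Bmal1-/-, and 622 to 3039 were rhythmic in wild-type total RNA. Nuclear libraries were the shallowest, and Snhg6 was under the count minimum there.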
